A study of Mus musculus with 11 samples.

Results

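The transcription factors TCF-1, encoded by Tcf7, and LEF-1, encoded by Lef1, were followed through the acetylation of their chromatin in the mouse pre-T cell line Beko. All regions whose gene symbol was Tcf7 or Lef1 in the authors' deposited table of acetylation of histone H3 at lysine 27 (H3K27ac) were taken, which gave 78 of 56342 regions, 13 of Tcf7 and 65 of Lef1. H3K27ac was profiled by chromatin immunoprecipitation and sequencing, with 2 libraries after 24 h of apicidin (0.01 mg/ml, labelled as an HDAC3 inhibitor), 2 after 24 h of DAPT (10 mg/ml as labelled), and 2 after 24 h of the solvent DMSO. DAPT is a gamma-secretase inhibitor (GSI) and prevents the cleavage that activates Notch. RBPJ, the DNA-binding partner of cleaved Notch, was mapped in DMSO cells with 2 libraries, and each condition had 1 input library. All groups are the same line, and separate cultures are not mentioned in the labels for libraries of 1 condition, so that p-values speak of the spread from library to library alone and this may be technical. Both treatments were set against the same DMSO libraries. The table holds no value per library, so levels are given as the base mean, a normalised read count averaged by the authors over libraries, and changes as log2 fold changes over DMSO with their standard errors (SE).

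TCF-1 and LEF-1 bind DNA through a similar HMG box and act either with beta-catenin, which brings Wnt signals to their targets, or with Groucho-type co-repressors. In the mouse thymus TCF-1 is switched on early under Notch signalling and is needed for commitment to the T lineage, and LEF-1 is needed together with it for development through the pre-T stage. H3K27ac marks active promoters and enhancers, histone deacetylases remove it, and blocking gamma-secretase withdraws Notch from RBPJ-bound enhancers.

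The labelled cell type was checked against marker genes. All 12 pre-T markers had a region, and at 10 of them a region covered the transcription start site. Some markers of other cell types had a region too, 4 of 6 for the B lineage, 1 of 6 for myeloid, 3 of 5 for erythroid and megakaryocyte, and 3 of 6 for natural killer and innate lymphoid cells. Their highest base means were 260.1, 1245, 871 and 937 by cell type, against 12722 for pre-T markers, in the authors' deposited table. The weakest pre-T marker reached 221.6, below each of these other maxima, so the ranges overlapped. A start site was covered for 0 of 6 B-lineage, 0 of 6 myeloid, 0 of 5 erythroid and megakaryocyte, and 1 of 6 natural killer and innate lymphoid markers, the last being Id2.

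The 13 Tcf7 regions formed a nearly continuous acetylated domain on chromosome 11, in which 65.2 kb of a 70.2 kb span were covered (mm9; Tcf7 lies on the minus strand). Their median base mean was 684, and 10 of the 13 in the authors' deposited table were at or above the table's median of 61.3. The strongest region covered the start site (52080738 to 52101097, 20.4 kb wide) with a base mean of 8020. Lef1, on the plus strand of chromosome 3, was spread more thinly: its 65 regions covered 96.2 kb of a 265.7 kb span, and their median base mean was 44.5 in the authors' deposited table. Lef1 ranked 12 among 12081 symbols by its number of regions, and Tcf7 ranked 779. The strongest Lef1 region was not at the start site but 158 kb upstream (130642282 to 130654797), with a base mean of 4113, against 3583 for the region over the start site (130811883 to 130823862, 11.98 kb wide) in the authors' deposited table. Per kb of length, the start-site regions had a base mean of 394 for Tcf7 and 299 for Lef1, a level pooled over libraries without an error.

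The sequence around the Lef1 start is shown because the acetylated region over it moved with both treatments. RefSeq windows of 300 bases run from 250 before to 50 after a start. Only the most upstream window of each gene was searched, of 4 for Lef1 and of 2 for Tcf7. Both strands were searched for TGGGAA (the RBPJ core), CTTTGA and CTTTGT (TCF/LEF), and CACGTG and CAGCTG (E-boxes). The most upstream Lef1 window lies at chr3:131110047-131110346 on the plus strand of GRCm38.p6, a different build from the mm9 of the regions, and the TGGGAA at window positions 289 to 294 is in capitals:
Lef1 promoter: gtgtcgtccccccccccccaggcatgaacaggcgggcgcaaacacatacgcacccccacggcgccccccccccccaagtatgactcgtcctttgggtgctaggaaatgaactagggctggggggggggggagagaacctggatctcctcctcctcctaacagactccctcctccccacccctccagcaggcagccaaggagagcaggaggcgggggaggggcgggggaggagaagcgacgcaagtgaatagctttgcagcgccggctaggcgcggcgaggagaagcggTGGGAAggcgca
It lies 38 bases after the start and was the one match among the letters searched, none of which overlapped another there. The acetylated region over the Lef1 start overlaps no RBPJ site in the authors' annotation. TGGGAA occurs in 25.6% of all 32851 windows, CTTTGA in 16%, CTTTGT in 18.7%, CACGTG in 7.15% and CAGCTG in 16.3%, so the match is a description and not a site. G and C made up 67.3% of the Lef1 window, against a median of 52.7% over all windows. The Tcf7 windows of the table lie inside the annotated gene and are not shown. The most upstream of them held CAGCTG and none of the other letters.

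With apicidin, Tcf7 was acetylated more strongly along its whole domain. Of its 13 regions 11 rose and 0 fell by the authors' DESeq2 test at an adjusted p under 0.05, with 0 lower at an unadjusted p under 0.05, whereas 23.8% of all regions of the table were called, 9.69% higher and 14.1% lower. All 13 log2 fold changes in the authors' deposited table were positive, from 0.40 to 1.36 with a median of 0.89, against a median of 0.0040 over all regions. In bulk chromatin, a change in every cell and a change in a share of the cells cannot be told apart.

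The region with the strongest evidence for Tcf7 lay upstream, not over the start. It is 10.4 kb wide, begins 21.7 kb upstream (52117484 to 52127890) and overlaps an RBPJ site. In the authors' deposited table its log2 fold change with apicidin was 1.22 ± 0.07 (SE), a 2.33-fold increase (adjusted p = 8.47e-63), the 6th smallest p of all 56342 regions. The start-site region rose by less, by 0.70 ± 0.06 (1.63-fold, adjusted p = 1.92e-32) in the authors' deposited table. The upstream region exceeded the start-site region by 0.52 on the log2 scale (95% interval 0.34 to 0.69), and exceeded the strongest region downstream of the start by 0.78 (0.57 to 0.98).

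The other upstream regions of Tcf7 differed in size of change, with no steady order by distance. The most distant, 35.4 kb upstream (52131180 to 52136457), rose by 1.13 ± 0.09 (adjusted p = 3.4e-33) in the authors' deposited table. The second RBPJ-overlapping region, 32.3 kb upstream (52128028 to 52130941), rose by 0.94 ± 0.11 (adjusted p = 7.57e-16) in the same authors' deposited table. The largest fold change of the gene, 1.36 ± 0.25 (adjusted p = 7.49e-07), was listed in the authors' deposited table for a weak region 19.4 kb upstream with a base mean of 133. Between 15.3 and 12.2 kb upstream, 3 further regions rose by 0.89 ± 0.11, 1.07 ± 0.25 and 1.07 ± 0.32 in the authors' deposited table. The lowest increase, 0.40 ± 0.10 (adjusted p = 0.000402) in the authors' deposited table, was that of a region 8.7 kb upstream (52104469 to 52107806). Both downstream regions rose, by 0.69 ± 0.11 at 15.1 kb (52077131 to 52080678) and by 0.44 ± 0.08 at 18.7 kb (52066278 to 52077053) in the authors' deposited table. The 2 regions that did not pass, at 0.75 ± 0.42 and 0.76 ± 0.35, had base means of 32.8 and 46.9 in the authors' deposited table and were the weakest of the gene.

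With GSI, nearly all of the Tcf7 domain lacked a call. The authors' deposited table lists no adjusted p of GSI for weak regions, which leaves 25756 tested ones, of which 6.62% rose and 7.17% fell. Of the 10 tested Tcf7 regions 0 rose, 1 fell and 9 were not called by the authors' DESeq2 test, and at an unadjusted p under 0.05 there was 1 higher and 1 lower. The region that fell was the one 8.7 kb upstream, by 0.38 ± 0.10 on the log2 scale (adjusted p = 0.00355) in the authors' deposited table, the same region in which apicidin gave the smallest increase. The start-site region was listed at -0.02 ± 0.06 in the authors' deposited table (adjusted p = 0.858), with a 95% interval of -0.14 to 0.09. The large RBPJ-overlapping region upstream was listed at -0.03 ± 0.08 in the authors' deposited table (adjusted p = 0.861), with a 95% interval of -0.18 to 0.12. The other RBPJ-overlapping region was listed at -0.22 ± 0.12 in the authors' deposited table (adjusted p = 0.254).

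**Figure D1:**
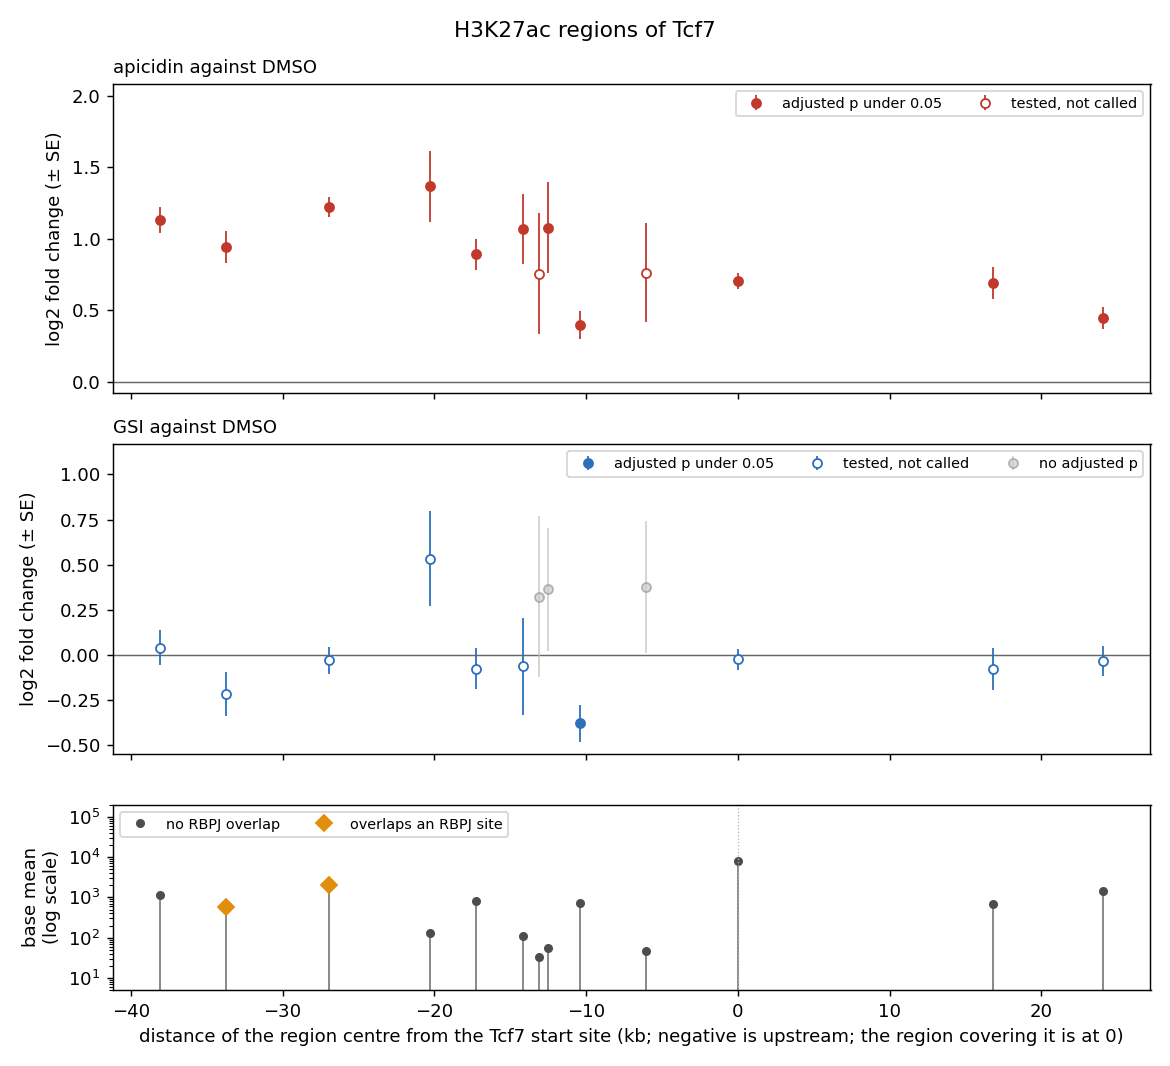
H3K27ac at the 13 Tcf7 regions, by distance of the region centre from the start site in kb: log2 fold change with apicidin over DMSO (top), with GSI over DMSO (middle; both with SE), and base mean on a log axis (bottom; diamonds overlap an RBPJ site). Filled points passed an adjusted p of 0.05 and grey points carry no adjusted p. All 13 apicidin points lie above 0, and the highest called point is the region that begins 19.4 kb upstream. The GSI points scatter around 0 and only the region that begins 8.7 kb upstream was called. These named distances are to the near edge of a region, so the points are drawn farther out.

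Lef1 did not move as 1 unit with apicidin. Of its 65 regions 8 rose, 1 fell and 56 were not called. Over all regions 12.3% rose, against 9.69% over the table, a share near the background, and 14.1% of the table fell. All 8, and the 1 that fell, were among the 27 Lef1 regions at or above the table's median base mean. Of the 24 stronger Lef1 regions that also have an adjusted p for GSI 7 rose, against 15.5% of such regions in the table. The authors' deposited table gave positive log2 fold changes for 46 of the 65 regions and negative ones for 19, with a median of 0.24. Among 1377 symbols with at least 10 regions, Lef1 ranked 433 by the share of regions that rose and Tcf7 ranked 3 with 84.6%, the median share being 7.14%.

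By p, the increases at Lef1 with the strongest evidence lay just before and over the start site. A region 1.6 kb upstream (130808623 to 130811580, base mean 418) rose by 1.73 ± 0.13 in the authors' deposited table, a 3.31-fold increase (adjusted p = 2.3e-38) and the 46th smallest p of the table. The start-site region rose by 0.53 ± 0.06 (1.44-fold, adjusted p = 1.91e-17) in the authors' deposited table, less than some weaker regions far from the start. Of the 31 regions more than 10 kb upstream 4 rose and 1 fell. The largest of these increases, 0.90 ± 0.19 (adjusted p = 3.61e-05) in the authors' deposited table, lay 95 kb upstream (130716540 to 130718032). The others in the authors' deposited table were 0.60 ± 0.16 at 112 kb (130699123 to 130701012), 0.51 ± 0.10 at 42 kb (130766080 to 130771166) and 0.24 ± 0.07 at 85 kb (130720780 to 130728232).

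Of the 5 Lef1 regions of highest base mean, 3 did not rise. The region 158 kb upstream was listed at -0.02 ± 0.06 in the authors' deposited table (adjusted p = 0.842), with a 95% interval of -0.15 to 0.10, and fell short of the start-site region by 0.55 on the log2 scale (95% interval of the upstream minus start-site difference, -0.72 to -0.38). The region 131 kb upstream (130674308 to 130682708) was listed at 0.09 ± 0.07 in the authors' deposited table (adjusted p = 0.395). The 1 region that fell lay 172 kb upstream (130637254 to 130641103), by 0.34 ± 0.07 (adjusted p = 5.25e-06) in the authors' deposited table. Downstream of the start, 2 of 32 regions rose, by 0.50 ± 0.12 at 41.9 kb (130857567 to 130861438) and by 0.86 ± 0.32 at 40.7 kb (130856426 to 130857191, base mean 67.3) in the authors' deposited table.

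With GSI, the upstream side of Lef1 lost acetylation over a long distance. Of the 24 tested regions 10 fell, 1 rose and 13 were not called, so that 41.7% fell, against 7.17% over the tested regions of the table. The authors' deposited table gave negative log2 fold changes for 22 of the 24, with a median of -0.40. Among 314 symbols with at least 10 tested regions, Lef1 ranked 9 by this share and Tcf7 ranked 94 with 10%, the median being 4.06%. By the number of regions that fell, Lef1 ranked 6 among the 1377 symbols with at least 10 regions. It also ranked 12 of 12081 by its number of regions, which favours a high count. Of the 18 tested regions more than 10 kb upstream 8 fell and 0 rose by the authors' DESeq2 test, with 0 higher at an unadjusted p under 0.05.

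The most distant decreases reached 172 kb upstream. At that region, the one that also fell with apicidin, the log2 fold change was -0.54 ± 0.07 (adjusted p = 1.22e-12) in the authors' deposited table. The strongest region, at 158 kb, fell by 0.45 ± 0.07 (0.732 of its DMSO level, adjusted p = 4.51e-10) in the authors' deposited table. By p the region at 131 kb came first within the gene: it fell by 0.70 ± 0.07 (0.616 of its DMSO level, adjusted p = 6.2e-21) and ranked 95 by p in the authors' deposited table. Weaker regions at 130 kb (130682831 to 130683562) and 127 kb (130683703 to 130685952) fell by 0.80 ± 0.26 and 0.79 ± 0.18 in the authors' deposited table. Among regions with an adjusted p the largest decrease, 0.88 ± 0.13 (adjusted p = 2.34e-10) in the authors' deposited table, was at 54 kb (130756107 to 130759135). Larger negative values were listed in the authors' deposited table at weak regions without an adjusted p. One such region lay 68.2 kb downstream of the start, at -0.92 ± 0.53 (unadjusted p = 0.0812). The others lay upstream, at -1.06 ± 0.46, -1.12 ± 0.32 and -1.15 ± 0.89 (unadjusted p = 0.0218, 0.000511 and 0.196). The region at 42 kb fell by 0.70 ± 0.11 (adjusted p = 4.93e-09) and the region at 85 kb by 0.22 ± 0.07 (adjusted p = 0.0156) in the authors' deposited table.

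Upstream the size of the decrease had no steady order by distance, and downstream of the start no tested region fell. The region 1.6 kb upstream fell by 0.58 ± 0.15 (adjusted p = 0.00171) and the start-site region by 0.19 ± 0.06 (adjusted p = 0.0162) in the authors' deposited table. Of the 4 tested regions downstream 0 fell and 1 rose by the authors' DESeq2 test, with 0 lower at an unadjusted p under 0.05 over all 32 downstream regions. That increase, 0.55 ± 0.16 (adjusted p = 0.00602) in the authors' deposited table, lay 46.2 kb downstream (130861905 to 130864052). The strongest upstream region lay below the start-site region by 0.26 on the log2 scale (95% interval of the difference, -0.43 to -0.083) and below the strongest downstream region by 0.73 (-1.01 to -0.46). Downstream regions were weak, with a median base mean of 32.4 and a highest of 525 in the authors' deposited table.

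**Figure D2:**
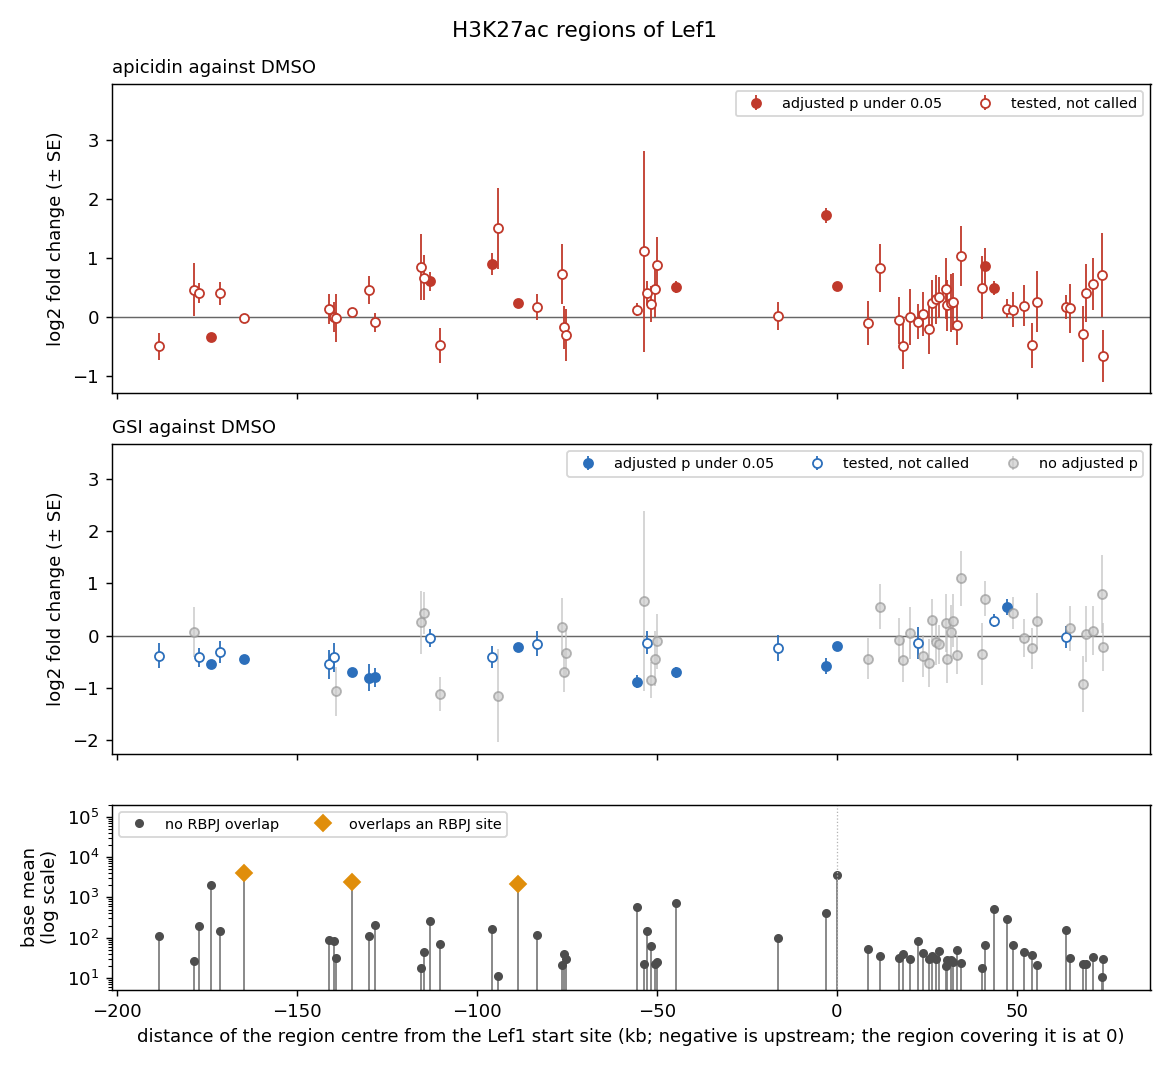
H3K27ac at the 65 Lef1 regions, by distance of the region centre from the start site in kb: log2 fold change with apicidin over DMSO (top), with GSI over DMSO (middle; both with SE), and base mean on a log axis (bottom; diamonds overlap an RBPJ site). Filled points passed an adjusted p of 0.05 and grey points carry no adjusted p. With GSI 10 regions fell, 8 of them more than 10 kb upstream. The highest apicidin point among called regions, 1.73, is the region that begins 1.6 kb before the start. These named distances are to the near edge of a region, so the points are drawn farther out.

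Both treatments were then set against each other region by region, as the apicidin fold change minus the GSI fold change. The difference passed an adjusted p of 0.05 at 8.61% of all regions, positive at 3.01% and negative at 5.6%. It was positive at 9 of 13 Tcf7 regions and 11 of 65 Lef1 regions, and negative at 0 of either, with 0 negative at an unadjusted p under 0.05. For Tcf7 it was 0.73 at the start site (adjusted p = 2.89e-16) and 1.25 at the large upstream region (adjusted p = 6.88e-30). For Lef1 it was 0.72 at the start site (adjusted p = 1.09e-14), 2.31 ± 0.20 at the region 1.6 kb upstream (adjusted p = 1.34e-27), 1.21 at 42 kb (adjusted p = 4.72e-14), 0.79 at 131 kb (adjusted p = 2.42e-13) and 0.43 at 158 kb (adjusted p = 0.000135). At the region 172 kb upstream, lower in both comparisons, the difference was 0.19 (adjusted p = 0.262). At the regions 40.7, 41.9 and 46.2 kb downstream of the start the difference did not pass, at 0.15, 0.21 and -0.40.

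**Figure D3:**
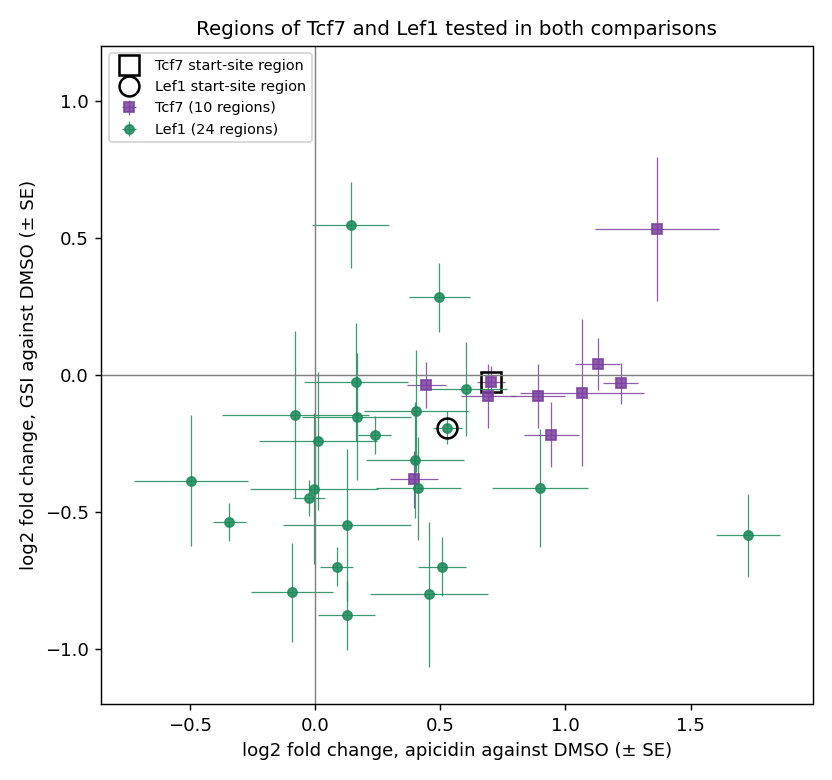
Log2 fold change over DMSO with apicidin (x axis) and with GSI (y axis), each with its SE, of the 10 Tcf7 regions (squares) and 24 Lef1 regions (circles) tested in both comparisons, with the start-site regions outlined; both axes rest on the same DMSO libraries. All 10 Tcf7 points lie to the right of 0, and 22 of the 24 Lef1 points lie below 0 on the GSI axis.

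RBPJ sites lay in few regions of either gene. The 2 RBPJ-overlapping Tcf7 regions both rose with apicidin and neither was called with GSI, at -0.22 ± 0.12 and -0.03 ± 0.08 in the authors' deposited table. The 3 RBPJ-overlapping Lef1 regions, at 158, 131 and 85 kb upstream, all fell with GSI, and 1 of them, at 85 kb, rose with apicidin. The smaller Tcf7 region and the Lef1 region at 85 kb, at -0.22 ± 0.07, had similar GSI fold changes in the authors' deposited table and differed in their SE. Over all 1538 RBPJ-overlapping regions 9.1% rose and 36.9% fell with apicidin, and of the 1460 tested with GSI 4.66% rose and 10.5% fell. The 1 pair of RBPJ-overlapping regions compared directly was the strongest upstream region of each gene: Tcf7 exceeded Lef1 between them by 1.24 with apicidin (95% interval 1.06 to 1.43) and by 0.42 with GSI (0.22 to 0.61). At the start sites Tcf7 exceeded Lef1 by 0.18 with apicidin (0.0154 to 0.335) and by 0.17 with GSI (0.0032 to 0.332), intervals that nearly reach 0. Among all regions covering a start site 8.01% rose and 39.4% fell with apicidin, and 5.25% rose and 4.36% fell with GSI.

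The changes did not all stop at the last region carrying either symbol. No region of another gene lay inside either span. Next to Tcf7, Skp1a, which encodes a subunit of SCF ubiquitin ligases, had 4 of 6 regions higher with apicidin, and its start-site region rose by 0.38 ± 0.07 in the authors' deposited table. On the other side Vdac1, which encodes a mitochondrial channel, had 3 of 14 regions higher with apicidin. Its strongest region (52148736 to 52160678, 12.3 kb beyond the last Tcf7 region) rose by 0.60 ± 0.06 with apicidin and fell by 0.30 ± 0.07 with GSI in the authors' deposited table, and its start-site region was not called with apicidin at -0.07 ± 0.07. Of 120 regions of other symbols within 500 kb of Tcf7, 20 rose (16.7%) and 5 fell with apicidin, against 9.69% and 14.1% of all regions of the table.

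Upstream of Lef1 the next symbol was Rpl34-ps1, a ribosomal protein pseudogene by name, with 3 of 8 tested regions lower with GSI. The strongest (130598593 to 130608124, base mean 3918, 16.1 kb before the first Lef1 region) fell by 0.56 ± 0.06 (adjusted p = 5.65e-18) with GSI and rose by 0.15 ± 0.06 (adjusted p = 0.0388) with apicidin in the authors' deposited table. Downstream, Hadh, which encodes an enzyme of mitochondrial fatty acid oxidation, had 1 of 6 regions higher and 1 lower with apicidin, and 1 of 2 tested regions higher with GSI. Of 17 tested regions of other symbols within 500 kb of Lef1, 1 rose and 3 fell (17.6%) with GSI, against 6.62% and 7.17% of the tested regions of the table.

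By the medians of both fold changes over regions, a distance over 2 comparisons, the symbols nearest to Tcf7 among those with at least 10 regions were 1700016L21Rik (distance 0.0504), Gzma (0.0936), which encodes the protease granzyme A, and Mir5114 (0.0961). Their medians with apicidin were 0.84, 0.81 and 0.92, against 0.89 for Tcf7. Fewer of their regions were called higher with apicidin: 3 of 11, 4 of 10 and 6 of 10, against 11 of 13 for Tcf7. Nearest to Lef1 were Foxb1 (0.0218), a forkhead factor, Med26 (0.0256), a Mediator subunit, and Mrpl35 (0.0319), a mitochondrial ribosomal protein. Their medians with GSI were -0.24, -0.20 and -0.24, against -0.22 for Lef1, over 11, 11, 13 and 65 regions, those without an adjusted p included. The calls were less alike: 1 of 4, 0 of 4 and 0 of 6 tested regions were lower with GSI, against 10 of 24 for Lef1. At an unadjusted p under 0.05 by the authors' DESeq2 test, 3, 0 and 1 of all their regions were lower, against 15 for Lef1.

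The partners and targets of TCF-1 and LEF-1 were examined by each gene's strongest region, the one of highest base mean. A gene said to rise or fall is that region alone, which can lie far from the start. The longest distances were 158417 bases for Lef1, 89240 for Ror2, 69869 for Bcl9, 53381 for Pygo1, 48471 for Sp5 and 27758 for Axin1. Lef1 therefore counts here as not called with apicidin, although its start-site region rose by 0.53 ± 0.06 in the authors' deposited table. Other regions could differ from the strongest one. With apicidin Ctnnb1 had 2 of 13 regions higher and 1 lower, and Tle3 had 5 of 7 higher and 0 lower. Of 44 genes with a region in the lists of the pathway, Tcf7 and Lef1 included, 10 rose and 19 fell with apicidin, against 12% and 33.5% of all 12081 genes. With GSI, 3 rose and 9 fell of 39 tested, against 7.74% and 6.8% of 10536 genes. These shares over all genes are the background for each list that follows. In the family itself Tcf7l2 had 2 weak regions and no call, at 1.06 ± 0.45 with apicidin in the authors' deposited table, and Tcf7l1 had no region. Apart from 1 receptor gene lower with GSI, each count of 0 in 1 direction given for the lists that follow was also 0 at an unadjusted p under 0.05 in the authors' DESeq2 test.

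Of beta-catenin and its co-activators 5 of 6 genes fell and 0 rose with apicidin, against 33.5% and 12% of all genes. Their median was -0.33, against -0.18 over all genes, so part of the decrease is shared by the table. With GSI 3 fell and 0 rose, against 6.8% and 7.74% of tested genes, with a median of -0.19, against 0.0071 over all genes. Ctnnb1, which encodes beta-catenin, fell by 0.27 ± 0.10 with apicidin and by 0.28 ± 0.10 with GSI in the authors' deposited table. Bcl9, an adaptor between beta-catenin and Pygopus proteins, fell by 0.39 ± 0.11 with apicidin and was not called with GSI, at 0.11 ± 0.11, in the authors' deposited table. Pygo1, a co-activator of beta-catenin, fell by 0.97 ± 0.17 with apicidin and by 0.51 ± 0.18 with GSI, and the Bcl9 relative Bcl9l fell by 0.28 ± 0.08 and by 0.26 ± 0.08, in the authors' deposited table. Jup, which encodes the beta-catenin relative plakoglobin, fell by 0.97 ± 0.19 with apicidin in the authors' deposited table.

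Of 8 co-repressors and inhibitors 4 had a region, of which 1 rose and 2 fell with apicidin (median -0.15) and 1 rose and 1 fell with GSI (median 0.01). Aes, a short Groucho-related protein, rose by 0.51 ± 0.09 with apicidin and by 0.75 ± 0.09 with GSI in the authors' deposited table. The Groucho-type co-repressor Tle3 fell by 0.52 ± 0.09 with GSI and was not called with apicidin, at 0.07 ± 0.08, in the authors' deposited table. The co-repressor Ctbp1 fell by 0.36 ± 0.10 and Nlk, a kinase that phosphorylates TCF/LEF proteins, by 0.48 ± 0.17 with apicidin in the authors' deposited table.

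Of the destruction complex, which degrades beta-catenin, and the Dishevelled proteins, 10 of 12 genes had a region, with 1 higher and 6 lower with apicidin (median -0.39) and 1 higher and 0 lower of 9 tested with GSI (median -0.04). The scaffold Axin1 rose by 1.04 ± 0.14 with apicidin and by 0.47 ± 0.14 with GSI in the authors' deposited table. The scaffold Apc fell by 0.60 ± 0.09, the kinase gene Csnk1a1 by 0.40 ± 0.09 and the kinase gene Gsk3b by 0.39 ± 0.10 with apicidin in the authors' deposited table. Of 17 genes for receptors and ligand secretion 6 had a region, and with apicidin 3 fell and 0 rose (median -0.41). These were Lrp6, a Wnt co-receptor, by 0.69 ± 0.10, Ror2, a receptor tyrosine kinase for Wnt5a, by 1.19 ± 0.18, and the Frizzled receptor gene Fzd7 by 0.41 ± 0.09 in the authors' deposited table. With GSI 0 of the 5 tested were called by the authors' DESeq2 test (median -0.08), and 1 was lower at an unadjusted p under 0.05.

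Of genes of Wnt feedback and common Wnt targets 4 of 6 with a region rose and 0 fell with apicidin, against 12% and 33.5% of all genes. Their median was 0.58, against -0.18 over all genes. Znrf3, a ubiquitin ligase that removes Frizzled receptors, rose by 0.97 ± 0.10 in the authors' deposited table, with 5 of its 27 regions higher and 1 lower. Ccnd1, which encodes cyclin D1, rose by 0.18 ± 0.07 (adjusted p = 0.0459) in the authors' deposited table, with 1 of 18 regions higher and 1 lower. Sp5, which encodes a Wnt-induced repressor, and Rnf43, a relative of Znrf3, rose by 1.91 ± 0.52 and by 2.00 ± 0.76 in the authors' deposited table. Both were weak regions, with base means of 21.8 and 34.2 (adjusted p = 0.00161 and 0.0393). With GSI 1 of 4 tested fell and 0 rose (median -0.09): Nkd1, an inhibitor of Dishevelled, fell by 0.69 ± 0.23 in the authors' deposited table. Axin2, a widely used Wnt target, was at -0.07 ± 0.09 with apicidin and -0.07 ± 0.09 with GSI in the authors' deposited table, without a call.

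Of 10 T cell genes known as TCF-1 or LEF-1 targets 3 rose and 3 fell with apicidin (median -0.04), and 1 rose and 3 fell with GSI (median 0.04). Gata3, a regulator of T cell commitment, rose by 0.33 ± 0.06 with apicidin and by 0.35 ± 0.06 with GSI in the authors' deposited table. Ptcra, the gene of the invariant pre-TCR alpha chain and a Notch target, fell by 0.49 ± 0.06 and by 1.01 ± 0.06, and Il2ra, the interleukin-2 receptor alpha chain, by 0.33 ± 0.06 and by 0.96 ± 0.06, with apicidin and GSI in the authors' deposited table. Cd3g, a chain of the T cell receptor complex, rose by 0.25 ± 0.05 with apicidin in the authors' deposited table.

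**Figure D4:**
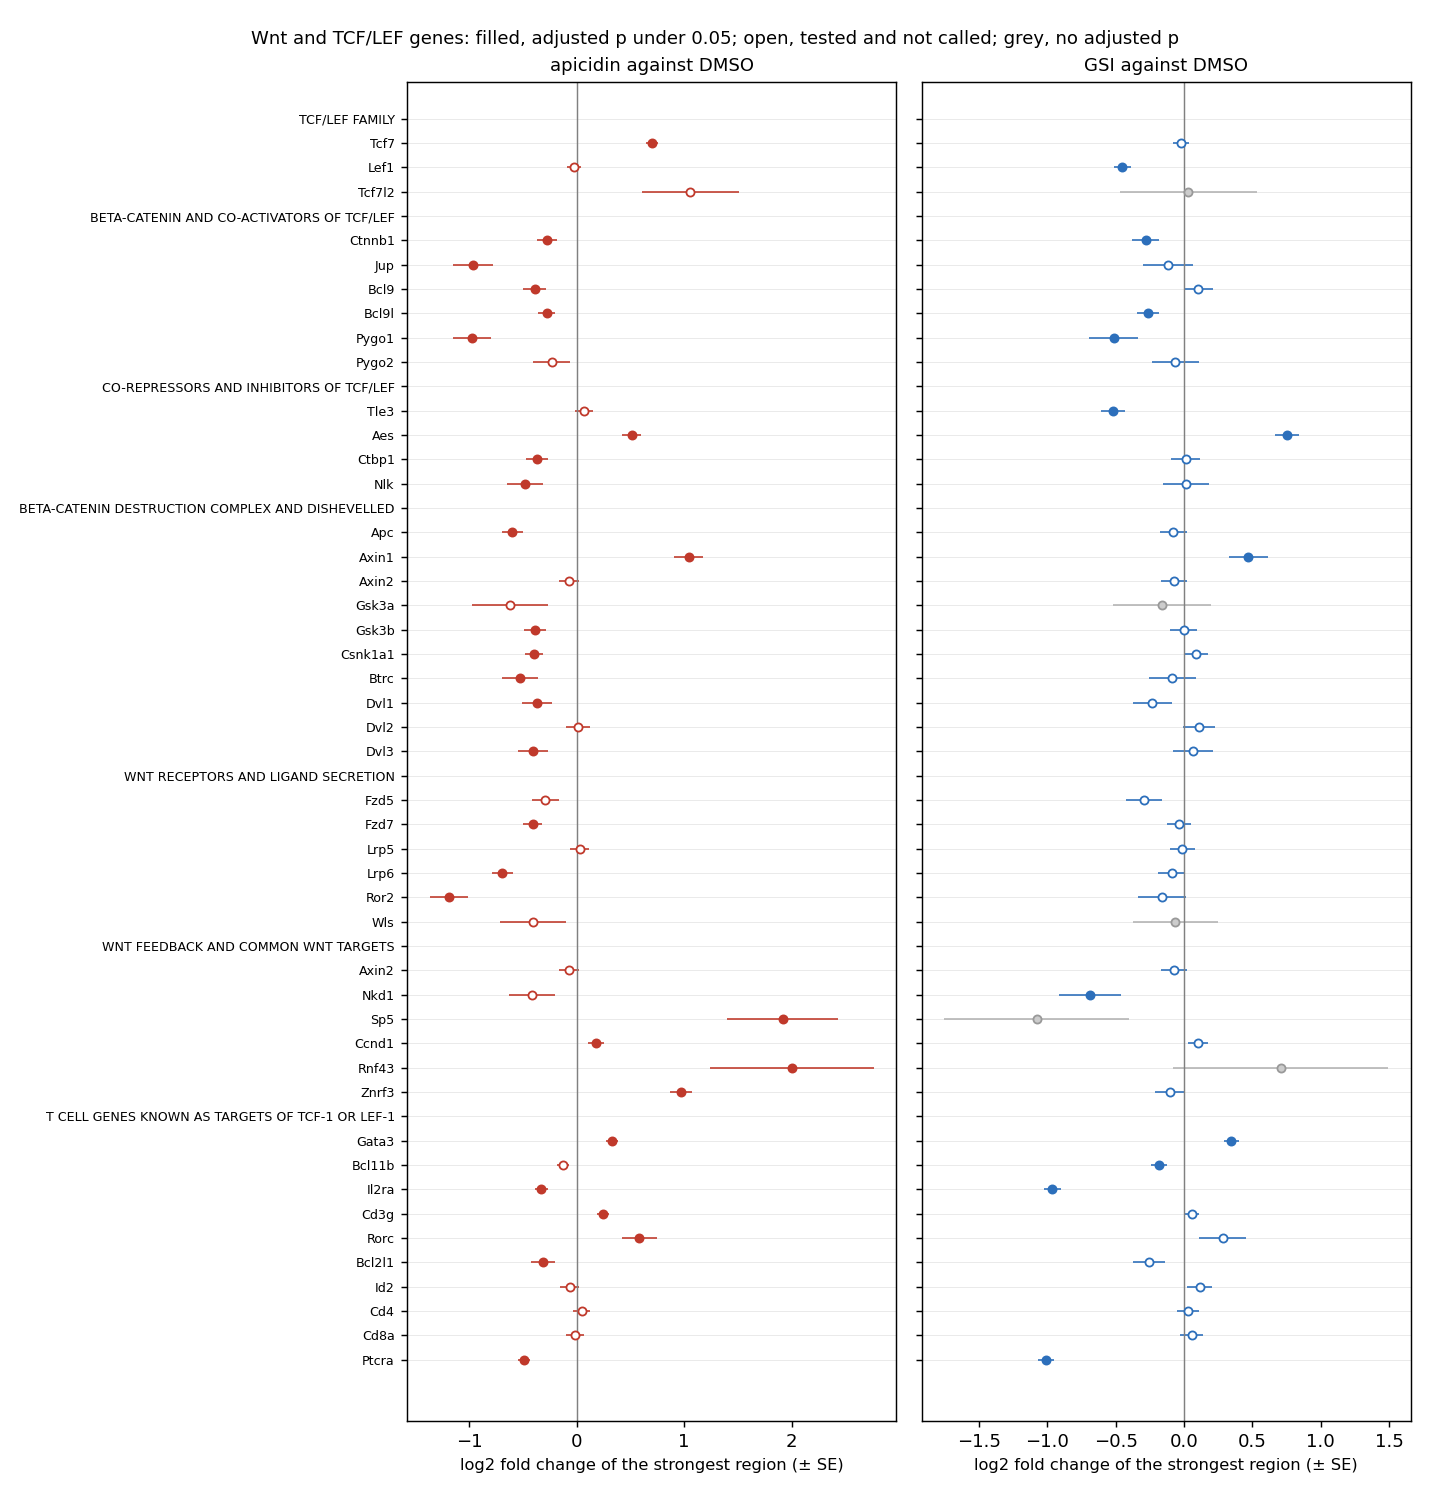
Log2 fold change (with SE) of the strongest region (highest base mean) per gene of the TCF/LEF and Wnt lists, with apicidin over DMSO (left) and GSI over DMSO (right), in the authors' deposited table. Filled points passed an adjusted p of 0.05, open points did not and grey points carry no adjusted p. Tcf7, Znrf3, Axin1 and Aes lie to the right of 0 with apicidin, and Lef1, Il2ra and Ptcra lie to the left of 0 with GSI. Lef1 is shown by its region 158 kb upstream, not by its start-site region.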

How the data were processed

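Only the table of H3K27ac regions that the authors deposited was used, and it carries no value per library. Tools named in the submitters' processing notes are Bowtie2, deepTools, FastQC and SAMtools (no versions), with mm9, taken as the build of the coordinates. The region caller and the read counter (not given in the sources used here) could affect region widths and levels, and depth per library is unknown. Per the file headers the statistics are those of DESeq2. The base mean, a signal, was averaged over libraries by the authors. The log2 fold changes, their SE and the Wald score are the authors' own, as are the p-values. The headers do not name the reference, taken to be DMSO. Adjusting the deposited p-values by Benjamini-Hochberg returned the authors' adjusted values, to within 5.40e-07 (apicidin) and 1.03e-06 (GSI). The adjusted GSI p is missing for 30586 regions with base means under 72.1, kept as untested. Start-site distances and RBPJ overlap are the authors' annotation, as deposited.

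A region was called at the authors' adjusted p under 0.05. Apicidin minus GSI was divided by the root of the summed squared SEs and given a two-sided normal p, adjusted over all 56342 regions. The shared DMSO libraries make this SE an upper bound. Intervals between regions come from the same sum, without a p. The members and lists were chosen with earlier results of these data known. Named genes are those called in a list, up to 4 by smallest p, the adjacent symbols and the 3 nearest in pattern. Ctnnb1, Tcf7l2, Tcf7l1, Axin2 and Ccnd1 were named after their values were seen. Python 3.11.15, pandas 2.3.3 and scipy 1.17.1 were used, and the computation was tested on simulated data. Alternatives were a stricter adjusted p, a fold threshold, distance limits, joined regions, other centrings and an SE for shared controls.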

Additional observations from a re-analysis of the deposited data

How the results depend on the processing

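With a log2 fold change of at least 1 required as well, Tcf7 kept 5 of 11 regions called higher with apicidin and 0 of 1 lower with GSI, and Lef1 had 1 in place of 8 higher and 0 in place of 1 lower with apicidin, and 0 in place of 1 higher and 0 in place of 10 lower with GSI. Regions less than 1 kb apart were joined, and each stretch was read by its region of highest base mean alone, not tested as a whole. That left 2 Tcf7 stretches, 2 of them higher with apicidin and 0 lower with GSI. It left 25 Lef1 stretches, with 0 lower with apicidin and, with GSI, 0 higher and 6 lower. Within 50 kb of the start, Lef1 had 5 regions higher and 0 lower with apicidin and 3 lower with GSI. An SE that allows for shared DMSO libraries gave 1 negative difference at Lef1 in place of 0. The shifts under the fold threshold come from called changes smaller than it, with the number of regions unchanged. The other shifts follow from fewer regions, from 1 region read per joined stretch or from the smaller SE. The other 65 counts stayed within 1.5 times of those reported, and all 66 single-region values, centred in other ways, kept direction and call. Within that limit, centring on the stronger regions left 13 in place of 19 of the 44 listed genes lower with apicidin, and 11 in place of 10 higher. The stronger part of the table, from its median base mean upward, had a median of -0.10 with apicidin, and calls at both start sites were the same relative to it. No paired analysis was possible because the table holds no value per library, and leaving out single libraries was not run for the same reason. Weak regions limit precision: 41 of 65 Lef1 regions and 3 of 13 Tcf7 regions carry no adjusted p for GSI.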

Other observations

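Among the 41 Lef1 regions without an adjusted p for GSI, an unadjusted p under 0.05 was listed for 3 lower and 2 higher ones. The lower ones lay upstream of the start and the higher ones downstream of it.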
